A study of Mus musculus with 18 samples.

Results

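C/EBPα binding that was strong 3 h after induction and low again by 48 h was examined in C10 cells. C10 is a pre-B cell line derived from HAFTL cells that carries an inducible C/EBPαER fusion tagged with GFP. The fusion protein enters the nucleus when the hormone β-estradiol is added, and the line serves as a model of B cells turning into macrophages. The sites were 4687 transient bins of 12361722 bins of 200 bp on the autosomes of mouse genome build mm9. They were chosen by their C/EBPα read counts scaled to 10000000 reads (normalised reads), which were 15 or more at 3 h, 4 or less at 0 h and 4 or less at 48 h. The values at those 3 time points are therefore given as a description.

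Chromatin immunoprecipitation and sequencing (ChIP-seq) reads of 18 libraries were used, with 1 library for each antibody and time. C/EBPα (antibody sc-61) was measured at 0 h, 10 min, 30 min, 60 min, 3 h, 12 h, 24 h and 48 h, and C/EBPβ (sc-150) and PU.1 (sc-352) at 0, 3, 12, 24 and 48 h. Every group was the same cell line carrying the same fusion, and the induced cells were also given IL-3 and CSF-1, so these cytokines and β-estradiol cannot be told apart. The 0 h libraries were of uninduced cells. The labels give 0.1% ethanol as the solvent control and do not say which libraries received it. Because each time point was 1 library of 1 line, no difference was tested, and the 95% intervals below (exact Poisson for reads, Clopper-Pearson for shares) cover counting error only. Gene expression was not part of these files, so the pre-B or macrophage-like state could not be checked against marker genes.

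After 1 read was kept per position and strand, a C/EBPα library held between 5832857 and 24236183 autosomal reads. The C/EBPβ libraries were shallower, between 2824293 and 5685450, and the PU.1 libraries lay between 6414863 and 11094617. A level of 15 normalised reads stood for 16.3 reads in the C/EBPα library at 3 h, for 9.62 to 16.6 reads in the PU.1 libraries and for only 4.24 to 8.53 reads in the C/EBPβ libraries. A level of 4 stood for 3.46 reads at 0 h and 3.10 reads at 48 h. The C/EBPα libraries at 10, 30 and 60 min were sequenced as 50-base reads on another sequencer, so time and sequencer cannot be told apart for any step between those libraries and the others, from 0 h to 10 min and from 60 min to 3 or 12 h.

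C/EBPα is a leucine zipper transcription factor that drives the granulocyte and macrophage fate and binds DNA as a dimer at palindromic elements resembling TTGCGCAA. C/EBPβ is its close relative with nearly the same DNA preference and is abundant in macrophages. PU.1 is an ETS-family factor that recognises purine-rich GGAA elements and is present at a low level in B cells and at a high level in macrophages. EBF1 maintains B-cell identity together with the E proteins, and the E proteins bind E-boxes such as CACCTG and CAGCTG.

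The plus-strand mm9 sequences of 11 bins are shown because they lead the groups named in the results. Capitals mark matches, on either strand, to the C/EBP element TTGCNNAA, its looser forms TTNCNNAA and TTGCNNCA, the composite C/EBP-ATF element TGATGCAA, the PU.1 element GAGGAAGT and the EBF1 element TCCCNNGGG. The first 6 are the leading sites in C/EBPα at 3 h, with one other leading site left out. They lie at chr19:32678801-32679000 (intergenic, 15.6 kb upstream of Papss2), chr12:21483601-21483800 (intergenic, 60.2 kb upstream of Ywhaq), chr5:24499001-24499200 (intron of Prkag2, where 1500035N22Rik overlaps), chr16:21792001-21792200 (intergenic, 4.18 kb upstream of Ehhadh), chr16:16857201-16857400 (intergenic, 6.61 kb downstream of the start of Igll1) and chr6:99559201-99559400 (intron of Eif4e3).
Papss2 site: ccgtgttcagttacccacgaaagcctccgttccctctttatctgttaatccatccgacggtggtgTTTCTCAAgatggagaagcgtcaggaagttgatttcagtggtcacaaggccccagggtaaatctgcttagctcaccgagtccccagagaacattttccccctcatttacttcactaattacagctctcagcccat
Ywhaq site: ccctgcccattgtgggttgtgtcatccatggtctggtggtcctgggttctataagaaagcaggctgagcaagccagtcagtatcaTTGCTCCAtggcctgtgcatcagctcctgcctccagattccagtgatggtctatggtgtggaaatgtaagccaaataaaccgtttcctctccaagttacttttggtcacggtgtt
Prkag2 site: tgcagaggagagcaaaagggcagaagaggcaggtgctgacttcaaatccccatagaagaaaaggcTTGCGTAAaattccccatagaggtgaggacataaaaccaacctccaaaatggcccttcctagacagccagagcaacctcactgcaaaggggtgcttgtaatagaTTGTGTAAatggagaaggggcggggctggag
Ehhadh site: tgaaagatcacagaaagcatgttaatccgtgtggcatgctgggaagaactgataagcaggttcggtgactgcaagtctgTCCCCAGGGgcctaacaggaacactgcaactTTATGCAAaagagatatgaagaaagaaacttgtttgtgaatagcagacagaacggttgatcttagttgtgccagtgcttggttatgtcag
Igll1 site: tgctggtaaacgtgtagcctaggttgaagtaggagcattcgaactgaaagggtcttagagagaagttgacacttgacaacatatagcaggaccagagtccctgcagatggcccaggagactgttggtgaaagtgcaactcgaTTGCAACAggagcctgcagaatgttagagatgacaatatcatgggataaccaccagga
Eif4e3 site: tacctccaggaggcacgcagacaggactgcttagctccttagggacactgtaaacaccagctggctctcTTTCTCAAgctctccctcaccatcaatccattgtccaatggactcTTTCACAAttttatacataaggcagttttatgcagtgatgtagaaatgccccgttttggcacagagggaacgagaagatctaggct

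The other 5 bins had the largest PU.1 rise from 0 to 48 h (chr8:74846601-74846800, intergenic near Klf2), the largest PU.1 fall (chr16:41640401-41640600, intron of Lsamp), the most C/EBPα at 60 min (chr10:30982001-30982200, intergenic, 51.1 kb upstream of Hddc2) and the most C/EBPα at 24 h (chr3:128998801-128999000, intron of Enpep). The last of them, at chr3:15195001-15195200 (intergenic, 137 kb from the start of Gm9733), came next in C/EBPβ at 3 h after the Ehhadh and Eif4e3 bins.
Klf2 site: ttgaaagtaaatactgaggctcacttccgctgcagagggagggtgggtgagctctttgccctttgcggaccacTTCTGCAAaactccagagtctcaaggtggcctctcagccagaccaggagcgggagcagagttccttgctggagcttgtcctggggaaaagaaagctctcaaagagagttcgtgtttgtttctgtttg
Lsamp site: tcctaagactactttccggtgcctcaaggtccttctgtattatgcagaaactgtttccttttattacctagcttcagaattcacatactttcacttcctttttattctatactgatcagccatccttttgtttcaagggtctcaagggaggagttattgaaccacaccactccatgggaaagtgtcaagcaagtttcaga
Hddc2 site: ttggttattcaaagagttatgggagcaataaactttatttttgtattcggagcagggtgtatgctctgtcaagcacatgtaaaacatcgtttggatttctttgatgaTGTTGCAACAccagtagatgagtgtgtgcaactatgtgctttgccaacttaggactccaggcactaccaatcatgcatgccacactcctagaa
Enpep site: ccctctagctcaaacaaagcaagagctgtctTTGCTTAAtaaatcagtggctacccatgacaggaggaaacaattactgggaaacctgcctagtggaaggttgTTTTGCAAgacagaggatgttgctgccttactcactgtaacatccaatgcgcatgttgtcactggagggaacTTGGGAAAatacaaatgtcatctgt
Gm9733 site: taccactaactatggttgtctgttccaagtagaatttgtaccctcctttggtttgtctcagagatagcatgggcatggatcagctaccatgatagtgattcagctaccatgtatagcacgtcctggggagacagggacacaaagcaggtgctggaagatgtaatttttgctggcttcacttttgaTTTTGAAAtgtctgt

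Of 17219 bins with 15 or more C/EBPα reads at 3 h, 10216 had 4 or less at 0 h, while 1191 (6.92%) held 15 or more before induction. These new bins divided at 48 h into the 4687 transient bins (45.9%), 3390 bins between the 2 limits and 2139 kept bins with 15 or more. The transient bins joined into 4070 sites, of which 3506 were a single bin, 514 were 2 bins wide and 50 were 3 or 4 bins wide. At 3 h they were mostly moderate, with 1932 bins (41.2%) under 20, 1669 from 20 to under 30, 828 from 30 to under 50 and 258 (5.50%) at 50 or more. The bins nearest the limits carried 15.7 inside and 14.8 outside at 3 h, 3.47 and 4.62 at 0 h, and 3.87 and 5.15 at 48 h, steps of 1 read in each case. No reads at all were found at 48 h in 885 transient bins (18.9%) and at 0 h in 965 (20.6%).

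Loss in the bin was usually loss in its surroundings, although not always. A neighbouring bin was above 4 at 48 h beside 1349 transient bins (28.8%) and at 15 or more beside 206 (4.40%). The 48 h mean was 2.67 and 2.80 in the adjacent bins on either side, against 1.51 to 1.64 at 1 to 2 kb, so some signal remained. With bins strong at 3 h left out, the mean at 1 to 2 kb was 1.34. In the transient bins themselves, held at 4 or less by the rule, the 48 h mean was 2.03. The median distance to the nearest bin with 15 or more at 48 h was 57.0 kb, and 536 transient bins (11.4%) lay within 2 kb of such a bin. At 3 h 1544 transient bins (32.9%) stood beside a bin with a higher value, so they were not the top of their own peak.

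Much of the C/EBPα signal was present within the first hour, although 485 transient bins (10.3%) were still at 4 or less at 60 min, against 7.04% of all bins with 15 or more at 3 h and 5.38% of kept bins. The mean level was 4.08 normalised reads at 10 min, 16.9 at 30 min and 20.7 at 60 min, against 1.74 at 0 h and 25.8 at 3 h. The medians were lower, at 2.48, 9.49 and 14.7 for the early times and 21.2 at 3 h, because the bins differed widely. At 60 min the middle 50% of bins ran from 7.37 to 27.4. The level 1 to 2 kb away, with other strong bins left out, was only 1.15 to 1.78 in the same libraries, so the reads were gathered at the bins. With that flank taken off, the mean was 12.2% of its 3 h value at 10 min, 64.6% at 30 min and 80.1% at 60 min.

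The 15-read level was first met at 10 min in 203 transient bins (4.33%, interval 3.77 to 4.95), at 30 min in 1457 (31.1%), at 60 min in 716 (15.3%) and at 3 h in 2311 (49.3%). At 10 min 16.04% of all bins with 15 or more at 3 h and 10.1% of kept bins held 15 or more, and at 30 min 35.4% of transient, 51.6% of all and 52.0% of kept bins did. In all, 2265 bins (48.3%) held 15 or more at 60 min, below the 60.4% of all bins with 15 or more at 3 h and the 65.6% of kept bins. C/EBPα was at least 2-fold higher at 60 min than at 10 min (on the value plus 2) in 3766 transient bins (80.3%), against 73.4% of all bins with 15 or more C/EBPα reads at 3 h, the background for every fold count here, which includes the transient bins. The share was 85.3% in kept bins.

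At 12 and 24 h, libraries that did not choose the bins, C/EBPα was low. The mean was 7.77 at 12 h and 4.44 at 24 h, or 25.6% and 12.5% of the 3 h value above the flank. At 12 h 622 transient bins (13.3%, interval 12.3 to 14.3) held 15 or more, against 51.0% of all bins with 15 or more at 3 h, and at 24 h 100 bins (2.13%) did, against 33.8%. At 12 h 1780 bins (37.98%) were at 4 or less, against 15.1% of all such bins. A fall of at least 2-fold from 60 min to 12 h was found in 2471 transient bins (52.7%), against a background of 31.4% and 7.48% in kept bins. From 12 to 24 h a further 2-fold fall was found in 1344 transient bins (28.7%), against a background of 23.3%.

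**Figure D1:**
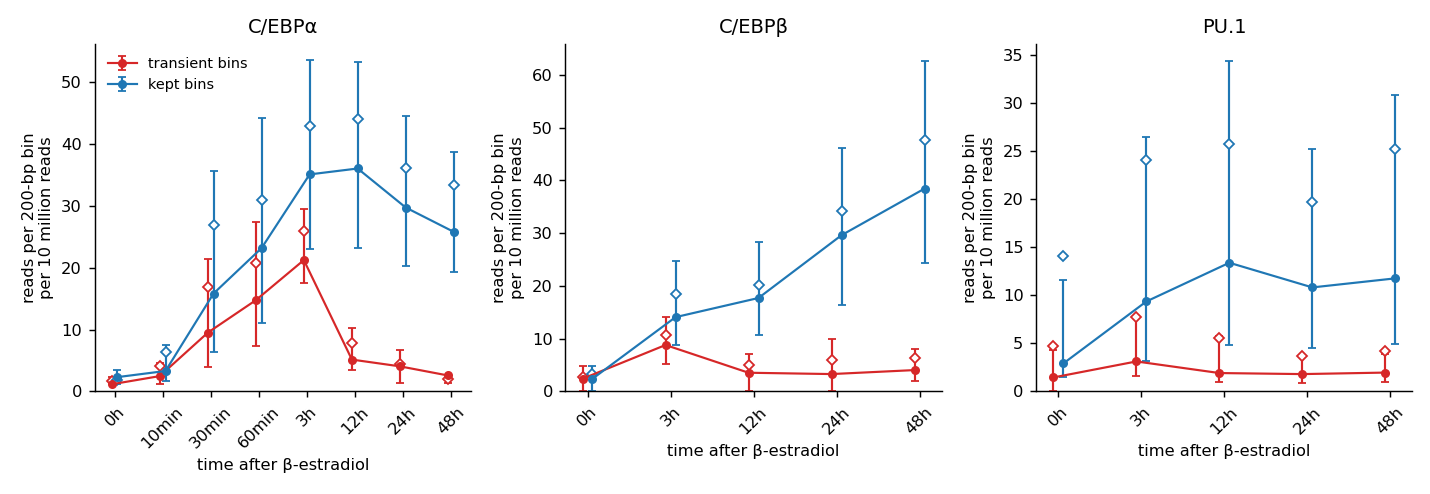
Normalised reads per 200-bp bin against time after β-estradiol in transient bins (red, n = 4687) and kept bins (blue, n = 2139) for C/EBPα, C/EBPβ and PU.1; filled points are medians, bars run from the 25th to the 75th percentile of bins and open diamonds are means, with 1 library per point. C/EBPα means in transient and kept bins are 20.7 and 30.9 at 60 min, 25.8 and 42.8 at 3 h, and 7.77 and 44.1 at 12 h.

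Kept bins were stronger at 3 h, with a C/EBPα mean of 42.8, and above the flank held 12.7%, 62.3% and 72.0% of that at 10, 30 and 60 min. Both sets were therefore compared within classes of 3 h signal. In the class from 15 to under 20, the means of transient and kept bins were 3.04 and 3.40 at 10 min, 10.9 and 10.7 at 30 min and 13.8 and 12.7 at 60 min. In the class from 30 to under 50 they were 5.46 and 5.74, 25.3 and 24.7, and 30.8 and 29.1. At 12 h the same classes gave 5.95 against 24.9 and 10.3 against 39.7. In the class of 50 or more, 40.7% of the 258 transient bins still held 15 or more at 12 h, against 99.2% of the 613 kept bins. In that class kept bins were also higher early, at 10.0 against 7.33 at 10 min and 52.8 against 47.4 at 60 min. They were higher at 3 h too, at 76.1 against 65.1, so this open class did not match the 3 h signal. The 12 h library was not used to choose either set.

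The strongest transient bins differed widely in how much C/EBPα they held at 12 h, and the plot of named sites gives all libraries. The bin upstream of Papss2, the gene of an enzyme that makes the sulfate donor of the cell, carried 0 normalised C/EBPα reads at 0 h, 5.78 at 10 min, 66.4 at 30 min, 70.0 at 60 min, 125 at 3 h, 82.3 at 12 h, 31.1 at 24 h and 3.87 at 48 h. The 3 h value of 125 had an interval of 104 to 147 normalised reads and rested on 135 reads. The 48 h value of 3.87 had an interval of 0.797 to 11.3 and rested on 3 reads. Of the 12 strongest sites it held the most C/EBPα at 12 and 24 h.

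The bin in an intron of Prkcb, which encodes a protein kinase C used in B-cell receptor signalling, held the least at both times. Its C/EBPα values in the order of time were 3.47, 32.6, 126, 107, 101, 3.43, 1.35 and 0. The Srd5a2 intron bin likewise went from 98.7 at 3 h to 10.3 at 12 h, after 112 at 60 min. The Sacm1l and Nfe2l1 bins, like the others here chosen for their 3 h value, held 21.05 and 29.5 at 60 min and 101 each at 3 h, then 12.0 each at 12 h. The Pabpc1l intron bin held 59.5 at 60 min, 95.9 at 3 h, 39.4 at 12 h and 23.0 at 24 h, and the bin nearest Diap1 held 104, 119, 80.6 and 18.9. Over the 12 strongest sites the 12 h value ranged from 3.43 to 82.3 and the 24 h value from 1.35 to 31.1.

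The 3 bins with the most C/EBPα at 60 min, chosen as such, are given as a description, across the change of sequencer. The Hddc2 bin carried 78.0 at 10 min, 179 at 30 min, 136 at 60 min, 72.9 at 3 h, 27.4 at 12 h and 0 at 24 and 48 h. The bin upstream of Hdac11, a histone deacetylase gene, followed with 61.5, 164, 130, 48.9, 15.4, 0 and 0 at the same times. The bin upstream of Tnfrsf13b, which encodes TACI, a TNF-family receptor on B cells, held 117 at 30 min, 124 at 60 min, 68.3 at 3 h and 6.86 at 12 h.

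The 3 bins with the most C/EBPα at 24 h, likewise chosen as such, formed the opposite end. The Enpep intron bin held 9.49 at 30 min, 25.3 at 60 min, 42.4 at 3 h, 54.9 at 12 h and 43.2 at 24 h before 3.87 at 48 h. The bin labelled Mtx3, 147 kb from the start of that gene, held 34.1, 42.9 and 37.8 at 3, 12 and 24 h and 1.29 at 48 h. The 1700112E06Rik intron bin held 23.1, 25.7, 36.5 and 3.87. These bins kept the factor for a day and were called lost from 1 library, that of 48 h.

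**Figure D2:**
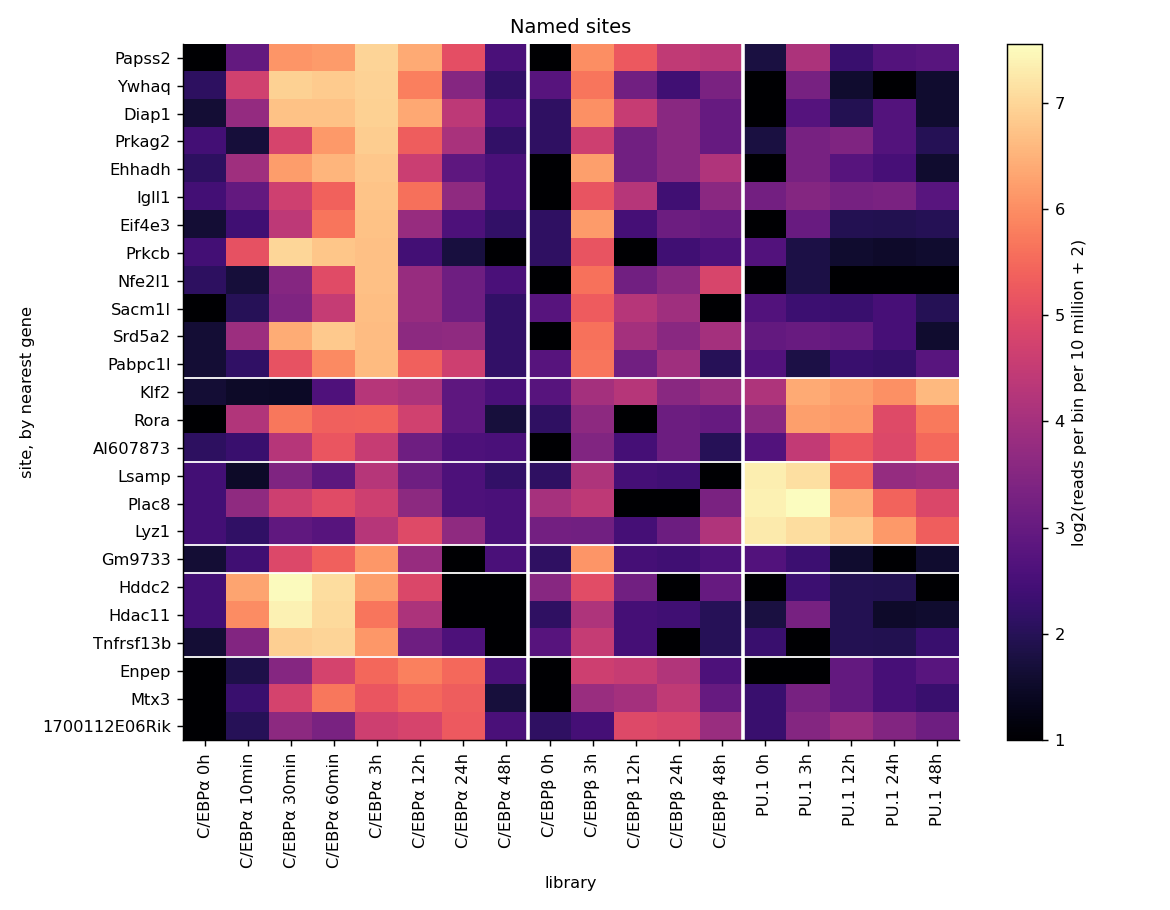
Each row is a named transient bin, labelled by its nearest gene, and each column 1 of the 18 libraries; colour gives log2 of normalised reads per bin plus 2. White lines part the antibodies and the groups of sites, from top to bottom those with the most C/EBPα at 3 h, the largest PU.1 rise, the largest PU.1 fall, high C/EBPβ at 3 h, and the most C/EBPα at 60 min and at 24 h; at Prkcb the C/EBPα value is 101 at 3 h and 3.43 at 12 h.

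C/EBPβ, which the choice of bins did not use, was also highest at 3 h in the transient bins. Its mean was 2.77 at 0 h, 10.6 at 3 h, 4.99 at 12 h, 5.91 at 24 h and 6.36 at 48 h, and the flank stayed between 1.55 and 1.68. The share of transient bins with 15 or more was 0.192%, 20.1%, 4.08%, 7.94% and 8.92% in that order. Over all bins with 15 or more C/EBPα at 3 h it was higher at every time, at 6.13%, 36.6%, 27.9%, 42.2% and 47.7%. C/EBPβ was at least 2-fold higher at 3 h than at 0 h in 3059 transient bins (65.3%), against a background of 59.2%, and 2-fold lower at 12 h than at 3 h in 2177 (46.4%), against a background of 29.0%.

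From 3 to 48 h C/EBPβ parted from the course it took at kept bins. It was 2-fold lower in 1915 transient bins (40.9%, interval 39.4 to 42.3), against a background of 20.6% and 2.29% in kept bins. It was 2-fold higher in 406 transient bins (8.66%), against a background of 31.4% and 61.1% in kept bins. The mean in kept bins went from 18.4 at 3 h to 47.5 at 48 h. At 3 h itself the sets differed less within a class of C/EBPα signal. The C/EBPβ means of transient and kept bins were 7.13 and 7.75 in the class from 15 to under 20. They were 15.01 and 15.9 in the class from 30 to under 50, and 27.0 and 34.3 in the class of 50 or more. In the class of 50 or more the C/EBPα means at 3 h differed as well, at 65.1 and 76.1.

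Some transient bins did hold C/EBPβ at 48 h. The 418 bins with 15 or more had a C/EBPα mean of 10.0 at 12 h and 6.85 at 24 h, against 7.77 and 4.44 over all transient bins. Among the strongest sites, the Nfe2l1 bin carried 26.3 of C/EBPβ at 48 h after 47.5 at 3 h and 7.08 at 12 h. The Ehhadh bin, with the most C/EBPβ at 3 h, went from 73.9 at 3 h to 7.08 at 12 h, 9.87 at 24 h and 16.2 at 48 h. The Eif4e3 bin went from 70.4 to 3.54, 6.58 and 6.07, and the Gm9733 bin from 66.8 to 3.54, 3.29 and 4.04. In these libraries 1 read was worth 1.76 to 3.54, so values under 10 rested on a handful of reads.

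**Figure D3:**
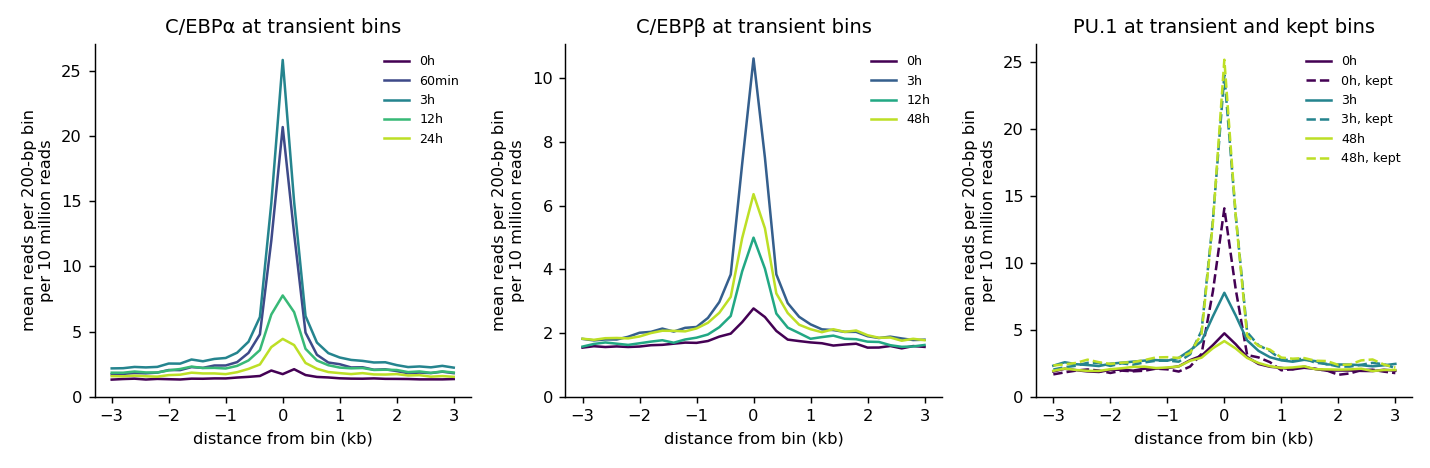
Mean normalised reads per 200-bp bin against distance from the bin, from 3 kb on either side, for C/EBPα and C/EBPβ at transient bins and for PU.1 at transient (solid) and kept (dashed) bins, with 1 line per library. Signal falls off within about 1 kb on either side; C/EBPα at transient bins peaks at 25.8 at 3 h and C/EBPβ at 10.6, and PU.1 at 0 h is 4.75 at transient and 14.1 at kept bins.

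PU.1 was low at the transient bins in every library. Its mean was 4.75 at 0 h, 7.78 at 3 h, 5.58 at 12 h, 3.72 at 24 h and 4.17 at 48 h, with a median of 1.45 at 0 h and 3.12 at 3 h and a flank of 1.84 to 2.23. The share with 15 or more was 6.17% (289 bins, interval 5.49 to 6.89) at 0 h, 12.0% at 3 h, 8.56% at 12 h, 4.63% at 24 h and 4.78% at 48 h. In kept bins it was already 19.5% (418 of 2139) at 0 h, before induction, and 39.0%, 46.8%, 40.4% and 44.5% later. All bins with 15 or more C/EBPα at 3 h lay between, with 17.9% at 0 h and 22.2% at 48 h.

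PU.1 at 0 h was lower than in kept bins at every strength of C/EBPα at 3 h. In the classes of 3 h signal from low to high, 6.63%, 6.17%, 5.68% and 4.26% of transient bins had 15 or more PU.1 reads at 0 h, against 19.9%, 20.4%, 18.7% and 19.4% of kept bins.

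The share of transient bins in which PU.1 was higher at 3 h lay near the background. PU.1 was at least 2-fold higher at 3 h than at 0 h in 1196 bins (25.5%), against a background of 27.9%, and 2-fold lower in 217 (4.63%), against a background of 3.78%. Between 0 and 48 h it was 2-fold higher in 581 bins (12.4%, interval 11.5 to 13.4), against a background of 21.6% and 52.8% in kept bins. It was 2-fold lower in 529 bins (11.3%, interval 10.4 to 12.2), against a background of 9.91% and 2.15% in kept bins. Bins with PU.1 under 2 at 0 h could not be called lower on the value plus 2. The PU.1 median at 0 h was 1.45 in transient bins, and 2.91 both in kept bins and in the background. The shares of falls are therefore not on an equal footing. The count of rises depended on scaling, and was 18.8% when reads outside the C/EBPα bins set the scale. The background was not recomputed under that scaling, so its place against 18.8% is not known.

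Transient bins that carried PU.1 before induction held more C/EBPα at 10 and 30 min. In the 289 bins with 15 or more PU.1 reads at 0 h, the C/EBPα mean was 6.99 at 10 min, 24.6 at 30 min, 23.6 at 60 min and 24.5 at 3 h, and 56.4% held 15 or more at 30 min. In the 3472 bins with 4 or less PU.1 at 0 h, it was 3.39, 14.7, 19.4 and 25.9, and 29.8% held 15 or more at 30 min. The 3 h levels of both groups were close, and the largest ratio between them was at 10 min. After 3 h the means were 11.1 and 7.15 at 12 h and 5.62 and 4.19 at 24 h.

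In those 289 bins the PU.1 mean, 41.7 at 0 h by choice of the bins, was 52.9 at 3 h, 34.5 at 12 h, 20.6 at 24 h and 24.8 at 48 h. The 3 bins with the largest falls, chosen as such, are given as a description. The Lsamp intron bin went from 160 at 0 h to 137, 41.1, 11.7 and 12.7 at 3, 12, 24 and 48 h. The bin 13.0 kb upstream of Plac8 went through 166, 186, 87.9, 40.6 and 27.4. The bin 31.2 kb upstream of Lyz1, a lysozyme gene, went through 154, 136, 112, 69.4 and 38.2.

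The 3 bins with the largest PU.1 rise from 0 to 48 h, chosen as such, are also a description. The bin 3.77 kb from the start of Klf2, a Krüppel-like factor gene of lymphocytes and myeloid cells, carried PU.1 at 15.98 at 0 h, 81.1 at 3 h, 73.6 at 12 h, 63.1 at 24 h and 95.1 at 48 h. Its C/EBPα was weak, at 4.21 at 60 min, 17.5 at 3 h and 15.4 at 12 h. The intron bin of Rora, a nuclear receptor gene, carried PU.1 at 10.2, 73.3, 69.8, 28.8 and 51.0, and the AI607873 intron bin at 4.36, 20.3, 35.4, 27.9 and 43.1.

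The sequence of the transient bins was rich in C/EBP elements. TTGCNNAA was found in 1450 bins (30.9%, interval 29.6 to 32.3), against 8.74% of genome bins weighted to the same GC content, 32.1% of all bins with 15 or more C/EBPα at 3 h and 37.3% of kept bins. The share climbed with signal, from 29.0% of transient bins in the class from 15 to under 20 to 40.7% in the class of 50 or more, and kept bins of the same classes had 29.6% and 46.0%. The perfect palindrome TTGCGCAA was found in 20 transient bins (0.427%) and 7 kept bins (0.327%), against 1.53% of all bins with 15 or more C/EBPα at 3 h and 0.0172% of the weighted genome. TGATGCAA was in 128 transient bins (2.73%), against 2.81% of kept bins, 3.87% of all bins with 15 or more C/EBPα at 3 h and 0.586% of the weighted genome.

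The looser elements, chosen after the sequences had been seen, covered most bins. TTNCNNAA or TTGCNNCA was in 3617 transient bins (77.2%), 80.6% of kept bins and 42.7% of the weighted genome. Of the printed leading sites, the Papss2 and Eif4e3 bins held TTNCNNAA without TTGCNNAA, and the Ywhaq and Igll1 bins held TTGCNNCA alone. The Lsamp bin, where PU.1 fell most, held none of the marked elements. It did hold the shorter GGAA on both strands, and TGTGGTT, the element of RUNX factors, which was not marked. Bins with TTGCNNAA had C/EBPα means of 3.66 at 10 min, 15.9 at 30 min, 20.98 at 60 min, 27.0 at 3 h and 7.31 at 12 h. The 3141 bins with neither TTGCNNAA nor TGATGCAA had 4.29, 17.4, 20.6, 25.3 and 7.99. No transient bin held a full palindromic estrogen response element, which with a limit of 3 counts allows a share of up to 0.0640%. The weighted genome share was 0.0204%.

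Elements of PU.1, AP-1 and RUNX factors were less frequent in transient than in kept bins. GAGGAAGT, the PU.1 element, was in 101 transient bins (2.15%, interval 1.76 to 2.61) and in 7.53% of kept bins (6.44 to 8.73), with 4.69% in all bins with 15 or more C/EBPα at 3 h and 1.33% in the weighted genome. The AP-1 element TGANTCA was in 6.14% of transient bins, close to 5.98% in the weighted genome, in 13.3% of kept bins and in 8.51% of all such bins. The RUNX element TGTGGTT was in 7.96% of transient, 10.8% of kept and 8.71% of all such bins, with 4.82% in the weighted genome. The octamer ATGCAAAT, the Oct factor element, was in 1.41% (1.09 to 1.79) of transient, 1.17% (0.758 to 1.72) of kept and 1.45% of all such bins, with 1.53% in the weighted genome, and the intervals of transient and kept bins overlapped.

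The EBF1 and E-box elements were more frequent in transient than in kept bins, unlike the octamer, and their shares in transient bins were near those of all bins with 15 or more C/EBPα at 3 h. TCCCNNGGG, the EBF1 element, was in 365 transient bins (7.79%, interval 7.04 to 8.59) and in 3.65% of kept bins (2.89 to 4.53), with 2.16% in the weighted genome and 7.57% in all bins with 15 or more C/EBPα at 3 h. CACCTG was in 670 transient bins (14.3%), 6.83% of kept bins and 13.0% of all bins with 15 or more C/EBPα at 3 h, with 13.6% in the weighted genome, so its share in transient bins was near the genome level and that in kept bins below it. CAGCTG was in 15.4% of transient, 12.0% of kept and 16.5% of all such bins, with 8.48% in the weighted genome. The difference in TCCCNNGGG was present in each class of 3 h signal, at 7.14% against 1.66% from 15 to under 20 and 11.2% against 5.71% at 50 or more. These elements can overlap one another, and a match does not show that the factor was bound.

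**Figure D4:**
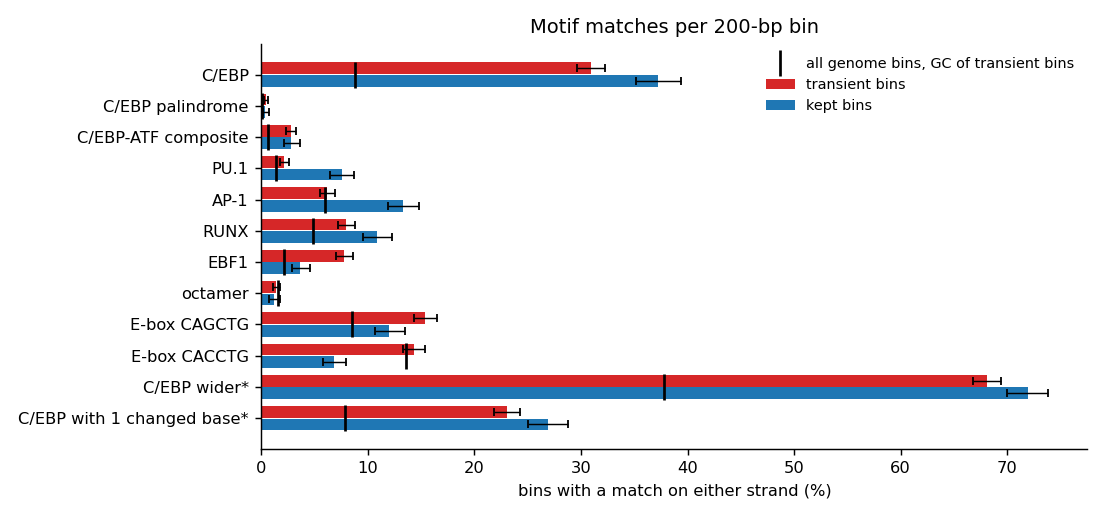
Share of 200-bp bins with a match on either strand for each element, in transient bins (red, n = 4687) and kept bins (blue, n = 2139); error bars are 95% Clopper-Pearson intervals, black ticks give all genome bins weighted to the GC content of transient bins, and asterisks mark elements chosen after the data were seen. PU.1 and AP-1 elements have longer blue bars (7.53% and 13.3%), the EBF1 element and CACCTG longer red bars (7.79% and 14.3%).

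Levels were also read in the bins that held these elements. The 365 bins with TCCCNNGGG held 15 or more C/EBPα reads at 30 min in 48.2%, at 60 min in 59.5% and at 12 h in 22.2%, against 35.4%, 48.3% and 13.3% of all transient bins. The 101 bins with GAGGAAGT had a PU.1 mean of 25.8 at 0 h, 31.9 at 3 h and 18.9 at 48 h, against 4.75, 7.78 and 4.17.

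The transient bins were mostly far from promoters. Of the 4687, 306 (6.53%) lay within 1 kb of the start of a transcript of a protein-coding gene, 2214 (47.2%) in introns, 45 in coding exons, 71 in UTRs, 15 in other exons and 2036 (43.4%) between genes. Of kept bins 7.81%, 43.4% and 45.9% lay in promoters, introns and between genes, of all bins with 15 or more C/EBPα at 3 h 11.03%, 43.0% and 43.0%, and of genome bins 3.18%, 34.8% and 59.7%. The intron share of transient bins (interval 45.8 to 48.7) was above that of kept bins (41.3 to 45.6). The median distance to a start was 17.4 kb for transient bins, 15.05 kb for kept bins and 48.3 kb for genome bins. Promoter and other transient bins had C/EBPα means of 25.6 and 25.8 at 3 h and 7.79 and 7.77 at 12 h.

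Genes of the B lineage were often near transient bins. A transient bin lay within 50 kb of a start of 24 of 32 B-lineage genes (75%, interval 56.6 to 88.5), against 4151 of 21281 protein-coding genes (19.5%). Kept bins lay that close to 6 of the 32 (18.8%), against 11.6% of all genes. The count of 6 became 3 with read ends moved by 50 bp in place of 75 bp, 8 with thinned libraries and 9 with bins starting 100 bp further on. Igll1 and Vpreb1, Rag1 and Rag2, and Blnk and Dntt, and among the macrophage genes below Lyz1 and Lyz2, are counted separately although each pair shares its strongest transient bin, so the genes are not independent as the interval assumes. Macrophage genes had both kinds, with a transient bin near 15 of 33 (45.5%, interval 28.1 to 63.6) and a kept bin near 21 (63.6%). With a 3 h limit of 20, a transient bin was near 6 of the macrophage and 19 of the B-lineage genes. The share of all protein-coding genes was not recomputed at that limit or for the other settings, so those counts have no background. Any bin with 15 or more C/EBPα at 3 h lay near 84.4% of the B-lineage genes, 84.8% of the macrophage genes and 42.6% of all genes. The lists were drawn up with earlier results of these data known, gene length and the number of starts were not matched, and their part in the counts was not tested.

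The other lists were small, and their shares are read against the 19.5% of all genes. A transient bin was near 7 of 19 blood progenitor regulators (36.8%, interval 16.3 to 61.6), 5 of 19 T-lineage genes (26.3%, 9.15 to 51.2) and 7 of 20 immediate early and AP-1 genes (35.0%, 15.4 to 59.2). It was near 7 of 15 cytokine feedback and survival genes (46.7%, 21.3 to 73.4) and 5 of 18 liver and fat genes known as C/EBP targets (27.8%, 9.69 to 53.5). In all of these lists but the cytokine genes the interval held 19.5%, which is a description and not a test of a list. These lists too were drawn up with earlier results of these data known. Any bin with 15 or more C/EBPα at 3 h lay near 73.7%, 47.4%, 85%, 80% and 50% of the 5 lists in that order, against 42.6% of all genes. Kept bins were near 4, 1, 10, 3 and 3 of these genes.

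**Figure D5:**
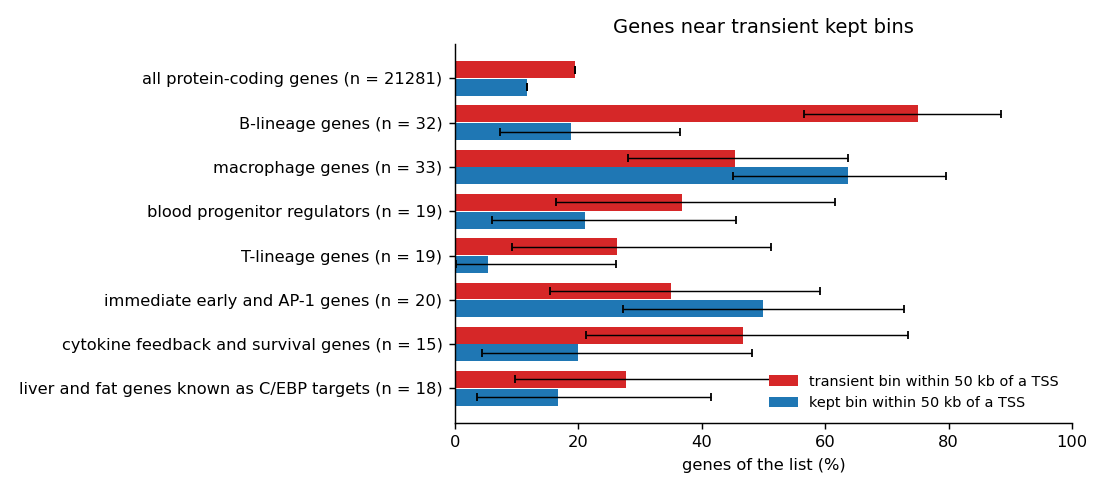
Share of the genes of each list with a transient bin (red) or a kept bin (blue) within 50 kb of a transcript start, with 95% Clopper-Pearson intervals for the lists and the number of genes in brackets. B-lineage genes have 75% for transient and 18.8% for kept bins, and macrophage genes 45.5% and 63.6%.

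The strongest of the B-lineage bins was shared by Igll1 and Vpreb1, whose products form the surrogate light chain of the pre-B cell receptor. It carried 3.47 normalised C/EBPα reads at 0 h, 5.78 at 10 min, 23.7 at 30 min, 40.0 at 60 min, 106 at 3 h (interval 87.6 to 127), 46.3 at 12 h, 10.8 at 24 h and 3.87 at 48 h. C/EBPβ there was 0, 33.4, 17.7, 3.29 and 10.1, and PU.1 stayed between 4.90 and 9.35. A kept bin also lay within 50 kb of both genes. The next was in an intron of Bach2, a repressor that restrains the myeloid program in B cells, at chr4:32521801-32522000. Its C/EBPα values were 2.31, 3.30, 27.7, 46.8, 92.2, 44.6, 2.70 and 1.29 in the order of time, and 5 transient bins and no kept bin lay within 50 kb of a Bach2 start.

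The bin 26.1 kb from the start of Cd22, a B-cell surface lectin gene, held 0, 0.825, 22.9, 50.5, 58.1, 17.1, 6.75 and 2.58 in C/EBPα, and PU.1 of at most 1.56. Another of the 4 transient bins near Cd22 held PU.1 of 238 at 0 h. The next B-lineage genes were named after their values were seen. Ebf1 had 8 transient bins within 50 kb, Myb 5, Rag1 and Rag2 3 each, Il7r 3 and Pax5 1. Of these 6 genes, Myb had 1 kept bin in that range and the others none. The kept bin near Myb held C/EBPα of 199 at 3 h, above the 57.2 of its strongest transient bin. Ikzf1, with 2 transient and 3 kept bins, and Erg, with 1 and 2, had more kept than transient bins. Their strongest kept bins held 57.2 and 103 at 3 h, against 15.7 and 29.5 in their strongest transient bins. At Igll1 and Vpreb1 the kept bin was the weaker, at 93.2 against 106. The bin shared by Rag1 and Rag2, which encode the V(D)J recombinase, lay 46.4 and 21.6 kb from their starts. It held C/EBPα of 13.2 at 60 min, 55.3 at 3 h and 5.14 at 12 h. The Il7r bin, near the gene of the interleukin receptor that pre-B cells depend on, held 28.5 at 30 min, 44.3 at 3 h and 0 at 12 and 24 h.

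Over the 49 transient bins near B-lineage genes, C/EBPβ had a mean of 11.2 at 3 h and 4.99 at 48 h. The PU.1 mean was 9.69 at 0 h and 6.30 at 48 h, but that bin near Cd22 held 238 at 0 h, and the medians were 1.45 and 1.96. The C/EBPα mean there was 28.4 at 3 h and 8.89 at 12 h, near the 25.8 and 7.77 of all transient bins.

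Macrophage genes with a transient bin included Cd36, a scavenger receptor gene, with a bin 0.909 kb past a start that held 23.7 at 60 min, 55.3 at 3 h and 5.14 at 12 h. A bin 48.8 kb upstream of Irf8, a regulator of the monocyte and B-cell lineages, held 43.1, 47.0 and 12.0 at those times, and 6 transient bins and 1 kept bin lay near Irf8. C/EBPβ at the Cd36 and Irf8 bins was 21.1 and 19.3 at 3 h and 2.02 and 8.09 at 48 h. Over the 31 transient bins near macrophage genes its mean was 10.6 at 3 h and 8.28 at 48 h. The Mpeg1 bin, near the gene of perforin 2, held C/EBPβ of 26.4 at 3 h, 14.2 at 12 h, 19.7 at 24 h and 18.2 at 48 h. The bin 25.8 kb from the start of Fcgr1 held C/EBPβ of 26.4 at 3 h and 24.3 at 48 h. At 12 and 24 h it held 7.08 and 9.87, near its 9.59 at 0 h. Csf1r, the receptor gene for CSF-1, also named after its values were seen, had 2 transient bins and 1 kept bin.

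Several genes of cytokine signalling had strong early bins. The bin 12.6 kb upstream of Stat3, a transcription factor activated by cytokines, held C/EBPα of 1.16, 38.4, 117, 86.3, 89.5, 42.9, 6.75 and 3.87, with C/EBPβ of 36.9 and PU.1 of 28.1 at 3 h. The bin 18.5 kb upstream of Il2ra, an interleukin receptor gene, held 7.01 at 10 min, 34.8 at 30 min, 46.3 at 60 min, 70.1 at 3 h, 61.7 at 12 h and 24.3 at 24 h, and 7 transient bins and no kept bin lay near it. Socs2, a feedback inhibitor gene, had a bin with 68.8 at 30 min and 39.7 at 3 h. The bin near Socs3, a related inhibitor gene, carried C/EBPβ at 35.4 at 12 h and 62.5 at 24 h, then 14.2 at 48 h. Socs3 had 1 transient and 2 kept bins within 50 kb, with C/EBPα of 45.2 and at most 82.1 at 3 h.

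Among the regulators, the bin 29.7 kb upstream of a Runx1 start held 19.8 at 10 min, 69.6 at 30 min, 36.8 at 60 min, 46.1 at 3 h and 10.3 at 12 h. Runx1 encodes a factor needed for blood stem cells, and 5 transient bins and no kept bin lay near it. Gata2 and Fli1 had bins of 20.3 each at 3 h and Etv6 one of 27.7 in its promoter. Of the T-lineage genes, the Tcf7 bin held 35.6 at 30 min, 42.4 at 3 h and 5.14 at 12 h, and the Notch1 bin 23.1 at 3 h and 30.9 at 12 h.

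The immediate early genes Dusp5, Nr4a1, Dusp6 and Egr1 had bins of 47.0, 44.3, 31.4 and 20.3 at 3 h, and 5.14, 44.6, 12.0 and 10.3 at 12 h. These bins lay 11.1, 42.4, 34.0 and 6.56 kb from the starts. Nr4a1 had 2 transient and 5 kept bins within 50 kb, and Dusp6 had 6 and 3. Their strongest kept bins were stronger, at 145 and 65.5 at 3 h. Dusp5 and Egr1 had no kept bin in that range. Of the liver and fat genes, the bin upstream of Cidec, a lipid droplet protein gene, held 69.6 at 30 min, 31.4 at 3 h and 0 at 12 h. The bin in Pparg, which encodes the receptor that directs fat cell formation together with C/EBPα, held 2.10 at 60 min, 22.1 at 3 h and 6.86 at 12 h. Scd1 and Adipoq had bins of 22.1 and 19.4 at 3 h.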

How the data were processed

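C/EBPα, C/EBPβ and PU.1 ChIP-seq was represented by 18 libraries, grouped by antibody and time as the labels give them. The deposited files are lists of placed reads (position and strand, build mm9). The authors aligned reads with Eland or Bowtie and used HOMER to find enriched regions. Repeat reads at the same position and strand were 2.52% of autosomal reads in the C/EBPα library at 3 h and at most 0.187% in the others. The files hold no other values, and versions were not given in the sources used here. From them, 1 read was kept per position and strand, 5′ ends were moved 75 bp inward, reads were counted in 200-bp bins of chromosomes 1 to 19 and counts were scaled to 10000000 reads. Fold counts used the scaled value plus 2 and a limit of 2-fold. With 1 library per antibody and time no test was run.

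Genes, places and sequence came from the GENCODE annotation and genome of the same build. Elements were searched on both strands, and genome shares were weighted to the GC content of the transient bins in classes of 5 percentage points. Named sites were the 12 joined sites with the most C/EBPα at 3 h, the 3 bins leading in each of PU.1 rise, PU.1 fall, C/EBPβ at 3 h and C/EBPα at 60 min and at 24 h, and up to 4 genes per list, of which 2 bins are not reported here. The members, limits and lists were chosen with earlier results of these data known. Binning, the choice of members and the element search were checked on simulated data. Python 3.11.15, numpy 2.4.6, pandas 2.3.3, scipy 1.17.1 and matplotlib 3.10.9 were used.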

Additional observations from a re-analysis of the deposited data

Results flagged for a closer look

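Several pairs of mean differences had opposite signs, and with 1 library per time none of these differences was tested. In transient bins C/EBPα changed by -3.33 normalised reads per bin from 12 to 24 h (7.77 to 4.44), while C/EBPβ changed by 0.919 (4.99 to 5.91). From 3 to 48 h C/EBPβ changed by -4.26 in transient bins (10.6 to 6.36) and by 29.1 in kept bins (18.4 to 47.5). From 0 to 48 h PU.1 changed by -0.580 in transient bins (4.75 to 4.17) and by 11.1 in kept bins (14.1 to 25.2).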

How the results depend on the processing

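Of 144 values recomputed (16 results under 9 alternatives), 124 moved by less than their limit and 20 moved further. For a share the limit was the Clopper-Pearson interval of its main value, so a step from 48.3% to 46.1% lay beyond it. Counts had a wider limit, and steps from 6 to 9 genes or from 4687 to 3338 bins lay within it. Counts and shares cannot change sign, so only the differences between transient and kept bins could reverse, and 0 did. Scaling to all placed reads and using 1 bin per joined site were chosen after seeing the data. With a 3 h limit of 20 there were 2755 transient bins. Of these, 17.7% held 15 or more C/EBPα at 12 h, 58.8% did at 60 min and 32.3% held TTGCNNAA. At that limit 6 macrophage genes had a transient bin nearby, with no share of all genes recomputed. Asking for 4 or less at 48 h in both neighbouring bins too gave 9.92% with 15 or more C/EBPα at 12 h, 6.95% with 15 or more C/EBPβ at 48 h, 5.18% with 15 or more PU.1 at 0 h, 11.1% with a PU.1 rise and 34.3% with TTGCNNAA. One bin per joined site gave 14.5% for C/EBPα at 12 h, 10.02% for C/EBPβ at 48 h and 32.7% for TTGCNNAA. Thinning the C/EBPα libraries to the smallest gave 11.7% at 12 h and 44.6% at 60 min. Scaling to reads outside strong C/EBPα bins gave 9.70% at 12 h and 18.8% with a PU.1 rise. All reads as deposited gave 46.1% at 60 min, bins starting 100 bp further on gave 7.71% for C/EBPβ at 48 h, and moving reads by 50 bp left 3 B-lineage genes with a kept bin. Beyond what each alternative's construction shows, the cause was not tested. Depth was 1 limit beside the single library per time, since a C/EBPβ level of 15 rested on as few as 4.24 reads and an absence at 48 h on at most 3 reads.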
